A study of Mus musculus with 9 samples.

Results

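The 10 genes described here form the core of the KEAP1-NRF2 antioxidant programme: Nfe2l2, which encodes the transcription factor NRF2, its repressor Keap1, and the targets Gclc, Gclm, Slc7a11, Gsr, Txnrd1, Srxn1, Nqo1 and Hmox1. They were chosen by name as textbook members of the pathway, with earlier results of these data known, out of 22564 genes in the deposited table. All 10 were in the table and all 10 passed the filter on low counts, as did 14074 genes in total. Their transcripts were measured by total RNA sequencing in the lungs of mice whose brains, and not their lungs, were the target of X-rays. The single exposure group (n = 3) received 10 Gy to the whole brain at 2 Gy per min. The 3 weekly exposures group (n = 3) received 10 Gy on each of 3 occasions a week apart, and the sham group (n = 3) was sham irradiated. All 9 samples, sham included, came from the GFP-LC3 strain, in which LC3, a protein of autophagosomes, is tagged with GFP. The labels give neither age, sex nor the time from the last exposure, so that differences in age, handling or time cannot be told apart from exposure. They number the samples without saying that each came from a separate animal, so the p-values are read against a spread between samples that may be technical.

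NRF2 is a transcription factor that cells make and destroy continuously. KEAP1, an adaptor of the CUL3 ubiquitin ligase, marks it for degradation, and oxidants or electrophiles that modify cysteines of KEAP1 let NRF2 escape, enter the nucleus, pair with a small MAF protein and bind antioxidant response elements. Its targets make glutathione, recycle thioredoxin, degrade heme and detoxify quinones, and in mouse lung the pathway is known for its part in defence against inhaled oxidants such as high oxygen and cigarette smoke. Because NRF2 is controlled largely through the stability of the protein, the transcripts of its targets are commonly read as its output, while its own transcript need not follow its activity.

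Promoters of some of these genes hold the kind of sequence that NRF2 is known to bind, and stretches of 5 of them are printed to show it. Windows of 250 bases before to 50 bases after the annotated start came from RefSeq on GRCm38.p6, which had entries for 7 of the 10 genes in 9 windows. The core of the antioxidant response element, TGANNNNGC, was searched on both strands, and so was the stricter TGACNNNGC, every match of which is also a match of the core. The core was present in 7 of the 9 windows, against 41.3% of all 32851 mouse promoters, and the stricter form in 4 of the 9, against 12.4% of all promoters. By gene, Nqo1 had no core match in its window, the other 6 had at least 1, and Nfe2l2, Gclm, Txnrd1 and Srxn1 had the stricter form. That of Srxn1 lies 28 to 36 bases after the start, outside the stretch printed. Capitals mark matches of the core, each sequence runs 5′ to 3′ in the direction of its gene, and a match on the opposite strand therefore starts with GC. A match describes these letters and is not a measured binding site. The stretches are Srxn1 at chr2:152105336-152105517 on the plus strand, Slc7a11 at chr3:50443620-50443740 on the minus strand, Txnrd1 at chr10:82859084-82859152 on the plus strand, Gclm at chr3:122245393-122245461 on the plus strand and Nfe2l2 at chr2:75704865-75704913 on the minus strand.
Srxn1: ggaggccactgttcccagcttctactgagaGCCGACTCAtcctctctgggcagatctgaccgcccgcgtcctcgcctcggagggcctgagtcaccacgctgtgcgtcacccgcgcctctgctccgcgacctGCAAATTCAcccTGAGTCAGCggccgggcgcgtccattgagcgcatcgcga
Slc7a11: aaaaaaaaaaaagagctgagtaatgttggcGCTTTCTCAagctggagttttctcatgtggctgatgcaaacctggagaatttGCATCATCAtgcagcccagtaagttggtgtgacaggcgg
Txnrd1: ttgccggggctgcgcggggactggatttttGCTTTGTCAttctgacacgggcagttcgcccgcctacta
Gclm: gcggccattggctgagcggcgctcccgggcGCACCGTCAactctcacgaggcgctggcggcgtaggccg
Nfe2l2: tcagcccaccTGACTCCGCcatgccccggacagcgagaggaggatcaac
Srxn1 has 3 core matches in its stretch and Slc7a11 has 2, while the other stretches have 1 each.

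The libraries held 4987828 to 7381008 fragments on protein-coding genes, and several stood apart. Library 1 of the single exposure group carried heart transcripts, with Myh6, the heart muscle myosin, at 5180 CPM (fragments scaled to library size) against 10.3 to 243 CPM in the others, and its summed alveolar type 1 and endothelial markers stood at 1400 and 740 CPM, against at least 4660 and 2670 CPM elsewhere. Mitochondrial transcripts took 7.16% of fragments in that library and 5.82% in library 1 of the 3 weekly exposures group, against 1.73 to 3.10% in the others. Library 3 of the 3 weekly exposures group had 0 fragments from 4 Y-linked genes that gave 1443 to 2070 fragments in each of the others. Sham library 1 was the only one with fragments of Myh4, a skeletal muscle myosin, at 4995, and its skeletal muscle markers summed to 2700 CPM, against 13.4 and 2.56 CPM in the other sham libraries. It lay between the other sham libraries in 71.0% of tested genes, which compares with 24.8 to 42.7% for the exposure libraries, each within its own group. For all 10 genes described here the level in sham library 1 was 0.913 to 1.04 times the mean of the other sham libraries. Markers of alveolar type 1, alveolar type 2, club and endothelial cells were present in every library.

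No member of the pathway differed between the groups past the threshold, and for most the interval of the difference lay within 2-fold. With edgeR's quasi-likelihood test and Benjamini-Hochberg adjustment over 14074 genes, 0 of the 10 members were called in any of the 3 comparisons, where 0% of all genes were called. The count of members at an unadjusted p under 0.05 was also 0 in each comparison, against 12.0% of all genes for the single exposure, 7.90% for the 3 weekly exposures and 6.54% between the exposure groups. No member reached that p when sham library 1, library 1 of the single exposure group or library 3 of the 3 weekly exposures group was left out. DESeq2 called 198 genes for the single exposure and 89 for the 3 weekly exposures, and no member was among them. After the single exposure, 4 members were higher and 6 lower than in sham (53.8% and 46.2% of all genes), with a median log2 change of -0.01 against 0.03 over all genes. After 3 weekly exposures, 3 were higher and 7 lower (52.4% and 47.6% of all genes), with a median of -0.08 against 0.02 over all genes. For 8 of the 10 members the 95% interval of the difference lay within 2-fold in each comparison with sham, the exceptions being Nqo1 and Slc7a11. It lay within 1.5-fold for 6 members after the single exposure and for 4 after 3 weekly exposures. Since the tissue is a mixture of cells, fewer cells of a type and less RNA per cell cannot be told apart in any of these values.

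**Figure D1:**
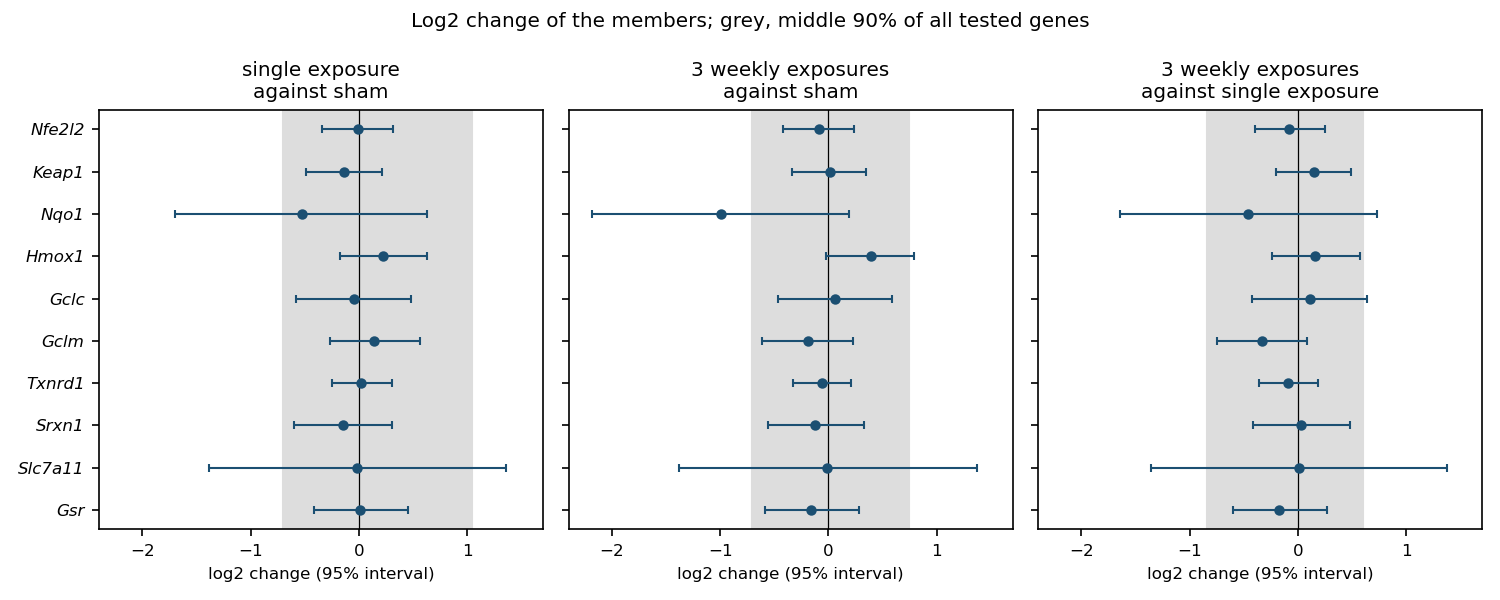
Log2 change (horizontal axis) with its 95% interval for each of the 10 genes (rows) in the 3 comparisons, from edgeR's fit of counts. Grey marks the middle 90% of all tested genes. Every interval includes 0, and those of Nqo1 and Slc7a11 are the widest.

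Nfe2l2, located at chr2:75675513-75704641 on the minus strand, gave 150, 181 and 196 CPM in single exposure lungs and 164, 151 and 185 CPM in 3 weekly exposures lungs, against 178, 189 and 165 CPM in sham lungs. The groups overlapped, and the highest of the 9 libraries exceeded the lowest by a ratio of 1.30. The log2 change was -0.01 ± 0.15 (SE; 95% interval -0.34 to 0.31) after the single exposure and -0.09 ± 0.15 (-0.42 to 0.24) after 3 weekly exposures, and both intervals lay within 1.5-fold either way. Keap1, located at chr9:21229730-21239361 on the minus strand, stood at 40.8, 35.8 and 45.2 CPM in single exposure lungs and 43.1, 51.6 and 40.0 CPM in 3 weekly exposures lungs, against 45.5, 46.2 and 42.5 CPM in sham lungs. Its intervals ran from -0.49 to 0.21 and from -0.34 to 0.35, and the groups overlapped. One of its exons overlaps that of Gm16754, annotated on the opposite strand, and since the labels do not say whether counting used strand, their reads cannot be told apart.

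Gclc and Gclm encode the catalytic and the modifier subunit of glutamate-cysteine ligase, the rate-limiting enzyme of glutathione synthesis. Gclc (chr9:77754535-77794485, plus strand) gave 177, 234 and 147 CPM in single exposure lungs and 271, 170 and 161 CPM in 3 weekly exposures lungs, against 192, 206 and 180 CPM in sham lungs. The exposure groups reached both above and below the sham range, and the log2 changes were -0.05 ± 0.24 and 0.06 ± 0.24. Gclm (chr3:122245557-122270732, plus strand) gave 87.4, 75.9 and 52.0 CPM in single exposure lungs and 54.3, 61.9 and 54.6 CPM in 3 weekly exposures lungs, against 63.3, 70.1 and 61.4 CPM in sham lungs. Libraries 1 and 2 of the single exposure group were the highest of the 9 and its library 3 the lowest, and the log2 change was 0.14 ± 0.19 after the single exposure and -0.19 ± 0.19 after 3 weekly exposures. Between the 3 weekly and the single exposures Gclm differed by -0.33 ± 0.19 (95% interval -0.75 to 0.08). Without library 3 of the single exposure group that difference was -0.52, with an unadjusted p of 0.00551 and an adjusted p of 0.279 by edgeR, and over all alternatives the adjusted p ran from 0.279 to 0.996.

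The direction for Gclm also depended on the deposited unit. The ratio of FPKM, the value per kilobase of transcript, to the deposited count varied 1.84-fold for Gclm among the libraries, more than for 91.2% of 11440 genes, while for the other 9 members it varied 1.02 to 1.16-fold. On log2(FPKM + 1), with a pseudocount of 1, the difference for Gclm was -0.23 after the single exposure and 0.16 between the 3 weekly and the single exposure group, both opposite in sign to the counts. The file's interval for Gclm ends at 122293547, past the annotated gene, and exons of Gm17494, on the minus strand, and of the pseudogene Gm6061 overlap those of Gclm, so that its values are uncertain.

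Slc7a11 (chr3:49892526-50443614, minus strand), the cystine transporter that brings in the cysteine for glutathione, varied most among the glutathione genes. It gave 10.6, 23.9 and 4.79 CPM in single exposure lungs and 24.6, 6.27 and 8.85 CPM in 3 weekly exposures lungs, against 13.6, 11.1 and 15.0 CPM in sham lungs. A single library of each exposure group stood above the sham range and the others below it, and the group differences were -0.02 ± 0.61 and -0.01 ± 0.61 on the log2 scale (95% intervals -1.39 to 1.36 and -1.38 to 1.37). The high libraries held 139 and 141 Slc7a11 fragments, with exact Poisson intervals of 117 to 164 and 119 to 166 that cover counting error only, and the lowest held 30 fragments (20.2 to 42.8). Leaving out library 2 of the single exposure group gave a log2 change of -0.78, and leaving out library 1 of the 3 weekly exposures group gave -0.81, neither of them called. Gsr (chr8:33652523-33698163, plus strand), the reductase that regenerates glutathione, gave 82.4, 61.3 and 87.1 CPM in single exposure lungs and 86.0, 58.0 and 61.4 CPM in 3 weekly exposures lungs, against 76.7, 68.6 and 83.4 CPM in sham lungs. Its groups overlapped, with log2 changes of 0.01 ± 0.19 and -0.16 ± 0.19.

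The 2 libraries with the most Slc7a11 were also those with the most Gclc, namely library 2 of the single exposure group and library 1 of the 3 weekly exposures group. Both also had the highest summed level of alveolar macrophage markers, at 597 and 631 CPM, against 260 to 461 CPM in the other 7 libraries. Of the 12 markers of that list 9 were in the table, none of them at 0 in all libraries although Fabp1 was at 0 in library 1 of the 3 weekly exposures group, and 4 (Mrc1, Ear2, Itgax and Atp6v0d2) were higher in both of those libraries than in any other. The others did not stand above all other libraries in both, and Marco, a scavenger receptor of alveolar macrophages, stood at 0.861 CPM in library 2 of the single exposure group and 4.54 CPM in library 1 of the 3 weekly exposures group, against 0.942 to 5.08 CPM in the other 7. Itgax, which encodes the integrin CD11c of alveolar macrophages and dendritic cells, stood at 164 and 244 CPM there and at 54.0 to 142 CPM in the other 7. Over groups, the list summed to 260, 597 and 389 CPM in single exposure lungs and 631, 370 and 461 CPM in 3 weekly exposures lungs, against 287, 287 and 308 CPM in sham lungs, and it shares Car4 with the endothelial list. Mitochondrial transcripts took 1.74% and 5.82% of fragments in those libraries. The part of these cells, or of the mitochondrial share, in the levels of Slc7a11 and Gclc was not tested.

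**Figure D2:**
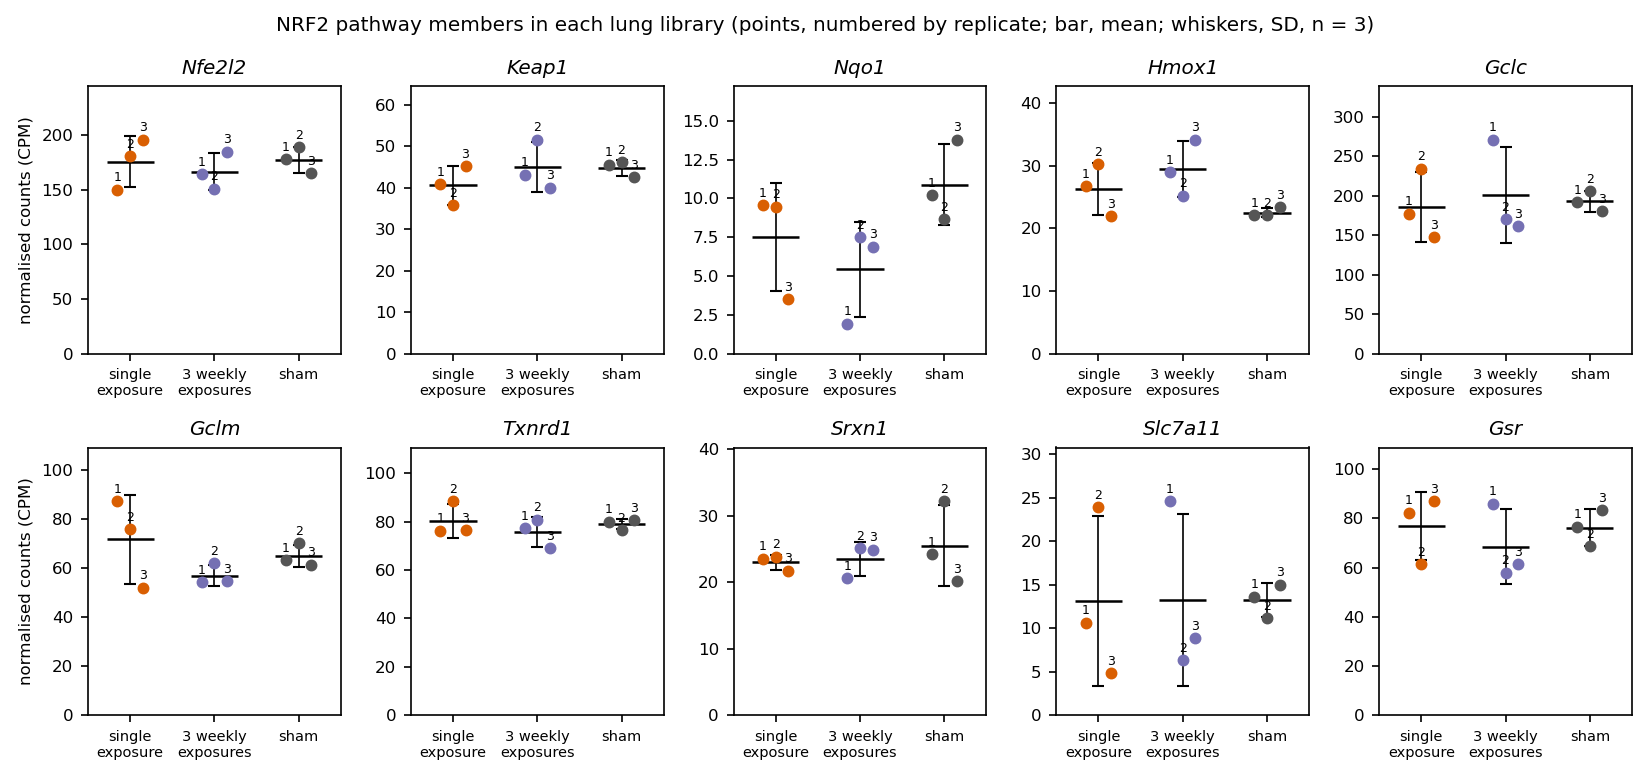
Level of each of the 10 genes in CPM (vertical axes, from edgeR with TMM scaling) in each library, with groups side by side and the bar at the group mean. Slc7a11 spreads from 4.79 to 24.6 CPM within the exposure groups, while Txnrd1 stays between 69.0 and 88.5 CPM.

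Txnrd1 (chr10:82833951-82897712, plus strand), the cytosolic thioredoxin reductase, was the steadiest member. It gave 76.3, 88.5 and 76.4 CPM in single exposure lungs and 77.3, 80.8 and 69.0 CPM in 3 weekly exposures lungs, against 79.9, 76.5 and 80.7 CPM in sham lungs. The groups overlapped, its SD within groups was 0.10 on the log2 scale, and only 5.52% of genes of like level had a smaller one. The log2 changes were 0.02 ± 0.12 (95% interval -0.25 to 0.30) and -0.06 ± 0.12 (-0.33 to 0.21). Srxn1 (chr2:152105516-152111376, plus strand), which encodes sulfiredoxin and rescues overoxidised peroxiredoxins, gave 23.5, 23.8 and 21.7 CPM in single exposure lungs and 20.6, 25.1 and 24.9 CPM in 3 weekly exposures lungs, against 24.2, 32.2 and 20.1 CPM in sham lungs. All 6 exposure libraries lay inside the range of the sham group, and its log2 changes were -0.15 ± 0.20 and -0.12 ± 0.20.

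Nqo1 and Hmox1 were the members whose 3 weekly exposures and sham libraries did not overlap, in opposite directions. That is 2 of 10 members, or a share close to the 21.9% of all genes whose groups did not overlap in that comparison, and the count was 0 of 10 for the single exposure, against 20.9% of all genes. Nqo1 (chr8:107388225-107403206, minus strand), a quinone reductase widely used as a readout of NRF2, gave 9.56, 9.47 and 3.51 CPM in single exposure lungs and 1.92, 7.49 and 6.88 CPM in 3 weekly exposures lungs, against 10.2, 8.67 and 13.8 CPM in sham lungs. Library 1 of the 3 weekly exposures group was the lowest of the 9, on 11 fragments with an exact Poisson interval of 5.49 to 19.7, and library 3 of the single exposure group came next, on 22 fragments. Their mitochondrial shares were 5.82% and 1.73%, and their part in the level of Nqo1 was not tested. The log2 change was -0.99 ± 0.53 (95% interval -2.18 to 0.19; adjusted p = 0.711 by edgeR) after 3 weekly exposures and -0.53 ± 0.52 (-1.70 to 0.63) after the single exposure. Leaving out 1 library at a time or changing the tool moved the change after 3 weekly exposures between -1.30 and -0.60, and it was not called in any of the 19 alternatives.

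Hmox1 (chr8:75093621-75100589, plus strand), the heme oxygenase that degrades heme to biliverdin, iron and carbon monoxide, gave 26.7, 30.3 and 21.9 CPM in single exposure lungs and 29.0, 25.2 and 34.2 CPM in 3 weekly exposures lungs, against 22.1, 22.1 and 23.4 CPM in sham lungs. The sham libraries were nearly identical, the 3 weekly exposures libraries all lay above them, and 1 of the 3 single exposure libraries lay below them. The log2 change was 0.39 ± 0.18 (95% interval -0.02 to 0.79; adjusted p = 0.65 by edgeR) after 3 weekly exposures and 0.22 ± 0.18 (-0.18 to 0.63) after the single exposure. Its unadjusted p of 0.0597 for the 3 weekly exposures was the smallest of any member in any comparison. Without sham library 1 the change was 0.37, with an unadjusted p of 0.143. With the 3 weekly exposures and sham libraries fitted alone the unadjusted p was 0.041 and the adjusted p 0.336 by edgeR, and over all alternatives the adjusted p ran from 0.336 to 1.0.

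The exposure groups did not differ from each other past the threshold for any member. Between 3 weekly and single exposures 5 members were higher and 5 lower (48.3% and 51.7% of all genes), the adjusted p from edgeR ranged from 0.779 to 0.997, and 0 of 10 members had groups that did not overlap, against 7.96% of all genes. The median change was -0.03, and the intervals of 8 members lay within 2-fold and those of 5 within 1.5-fold. Over the 3 groups at once, the smallest p of edgeR's F-test was that of Hmox1, at 0.154 and 0.616 after adjustment, so that 0 of 10 members were under 0.05 before adjustment, against 9.73% of all genes.

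**Figure D3:**
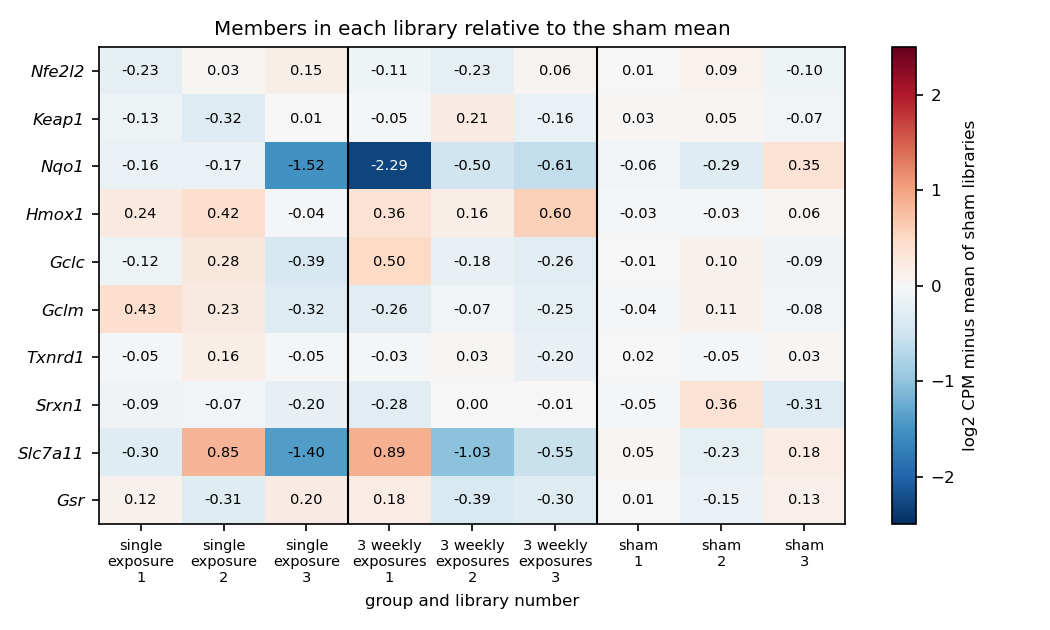
Log2 level of each gene relative to its sham mean (color) in each of the 9 libraries (columns), with genes in rows. No exposure library is high or low for all genes, and the library medians lie between -0.22 and 0.10.

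Per kilobase of transcript the transcript of the factor itself stood highest among the members. Median FPKM over the 9 libraries was 65.1 for Nfe2l2 and 43.3 for Gclc, followed by 24.5 for Gclm, 23.2 for Gsr, 19.0 for Txnrd1 and 13.8 for Hmox1. Keap1, Srxn1, Nqo1 and Slc7a11 closed the order at 9.48, 8.32, 4.81 and 1.09 FPKM. The ranges of neighbours over the 9 libraries overlapped except at the steps below Gclc and below Hmox1. Within a library the order was kept more often than the ranges show, since the higher of each overlapping pair of neighbours also stood higher in 7 or 8 of the 9 libraries. The spread itself was unequal, since the highest CPM exceeded the lowest 7.18-fold for Nqo1 and 5.14-fold for Slc7a11, and 1.28 to 1.85-fold for the other 8. For Nqo1 86.7% and for Slc7a11 94.8% of genes of like level had a smaller SD within groups.

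**Figure D4:**
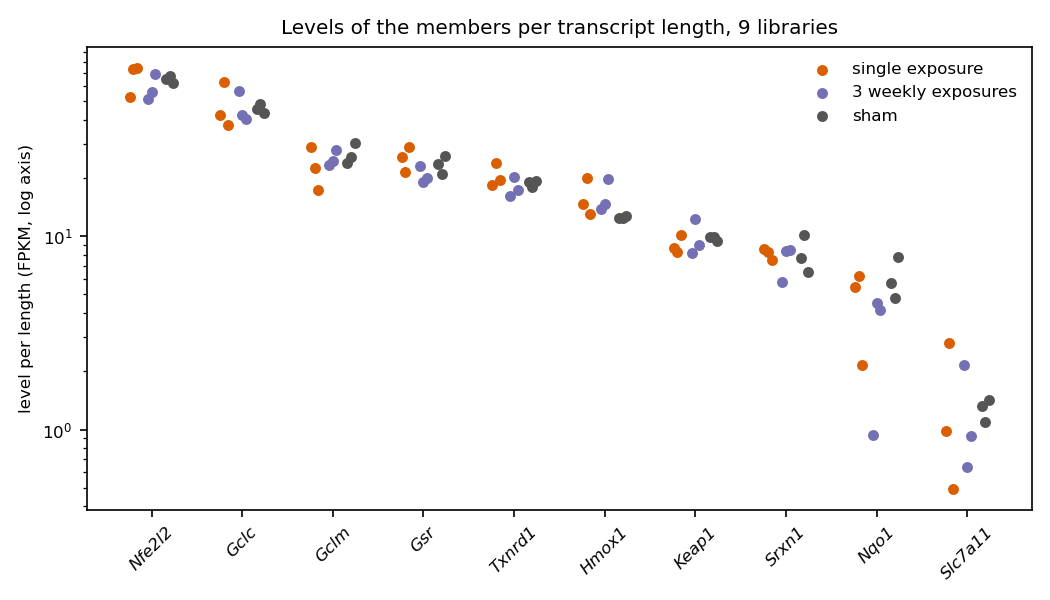
FPKM of each gene in every library on a log axis, with genes in order of their median over the 9 libraries and colors for the groups. The medians run from 65.1 for Nfe2l2 to 1.09 for Slc7a11.

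Around the 10 members, 121 further genes of the pathway in 9 lists were counted, of which 120 were in the table and 117 were tested. None was called by edgeR in any comparison. DESeq2 called 3 for the single exposure (Maff, Ggt5 and Fth1), 1 for the 3 weekly exposures (Maff) and 0 between the exposure groups. Of all 14074 tested genes it called 198, 89 and 5 in the same order. At an unadjusted p under 0.05 by edgeR, 10 of the 117 were higher and 8 lower after the single exposure. That is a share of 15.4% beside 12.0% of all genes (6.60% higher and 5.43% lower). After 3 weekly exposures 4 were higher and 9 lower, or 11.1% beside 7.90% (4.26% higher and 3.64% lower). Between 3 weekly and single exposures 2 were higher and 6 lower, or 6.84% beside 6.54% (2.79% higher and 3.74% lower). Over all 117 genes, whatever their p, 66 were higher and 51 lower after the single exposure, against 53.8% and 46.2% of all genes. After 3 weekly exposures 53 were higher and 64 lower, against 52.4% and 47.6% of all genes. Between the exposure groups 38 were higher and 79 lower, against 48.3% and 51.7% of all genes. The part of single libraries in these tallies was not tested. Leaving out 1 library at a time moved the counts at an unadjusted p under 0.05. That for the single exposure was 7 without sham library 1, 8 without sham library 3 and 28 when the single exposure group lost its library 3. The count for the 3 weekly exposures was 6 and 8 without the same sham libraries and 20 without library 1 of the single exposure group. That between the exposure groups was 4 when the single exposure group lost its library 1 and 18 when it lost its library 3. It was 5 without sham library 1 or 2 or library 1 or 2 of the 3 weekly exposures group. With the 6 exposure libraries fitted alone it was 2. Counts over all genes moved too when 1 library was left out. They ran from 763 to 2338 for the single exposure, where all libraries gave 1693. The ranges were 492 to 1722 for the 3 weekly exposures (1112 with all libraries) and 605 to 1816 between the exposure groups (920).

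The regulators held the pathway gene with the smallest p, Maff, one of the small MAF proteins with which NRF2 pairs on DNA. It gave 8.50, 10.5 and 15.2 CPM in single exposure lungs and 13.4, 9.67 and 14.1 CPM in 3 weekly exposures lungs, against 32.2, 32.8 and 35.2 CPM in sham lungs. Every exposure library was below every sham library, with log2 changes of -1.55 ± 0.25 and -1.43 ± 0.25 that edgeR did not call (adjusted p = 0.141 and 0.301). DESeq2 called both, with adjusted p of 4.64e-05 and 0.000391. Over 19 alternatives the change stayed between -1.81 and -1.30 after the single exposure (adjusted p up to 0.762) and between -1.53 and -1.28 after 3 weekly exposures (up to 1.0), and no alternative other than DESeq2 called it. Mafk, another small MAF gene, had a log2 change of -0.70 ± 0.27 after the single exposure, with an adjusted p of 0.373 by edgeR. At an unadjusted p under 0.05 after the single exposure, 1 of the 14 regulators tested was higher and 2 were lower. That is 21.4%, beside 12.0% of all genes. Cul3, the ubiquitin ligase scaffold that KEAP1 uses, was the higher one, at 174, 193 and 164 CPM in single exposure lungs against 141, 152 and 121 CPM in sham lungs. After 3 weekly exposures Dpp3, whose product competes with NRF2 for KEAP1, differed by 0.56 ± 0.15 with an adjusted p of 0.406 by edgeR.

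At an unadjusted p under 0.05 after the single exposure, glutathione synthesis, uptake and turnover had 1 of 11 genes higher and 2 lower. That is 27.3%, beside 12.0% of all genes. After 3 weekly exposures 1 was higher and 1 lower, or 18.2% beside 7.90% of all genes. Ggt5, a gamma-glutamyl transferase that acts on extracellular glutathione conjugates, was the higher one both times. It gave 13.0, 12.9 and 12.8 CPM in single exposure lungs and 8.38, 8.99 and 14.4 CPM in 3 weekly exposures lungs, against 4.80, 4.33 and 6.10 CPM in sham lungs. The groups did not overlap, with log2 changes of 1.34 ± 0.28 and 1.06 ± 0.28 (adjusted p = 0.211 and 0.406 by edgeR), and DESeq2 called the difference after the single exposure at 0.00982, where the other alternatives reached up to 0.85. Slc3a2, the partner chain that carries the SLC7A11 protein to the cell surface, gave 94.2, 114 and 157 CPM in single exposure lungs against 187, 167 and 213 CPM in sham lungs, with a log2 change of -0.64 ± 0.20 (adjusted p = 0.309 by edgeR).

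Among genes of heme and iron, 2 of 11 were higher and 2 lower at an unadjusted p under 0.05 after the single exposure. That is 36.4%, beside 12.0% of all genes, and none reached that p after 3 weekly exposures, beside 7.90%. Fth1, the ferritin heavy chain that stores iron and a known NRF2 target, gave 408, 291 and 475 CPM in single exposure lungs and 547, 503 and 530 CPM in 3 weekly exposures lungs, against 637, 617 and 621 CPM in sham lungs. All exposure libraries lay below the sham range, and 20.9% and 21.9% of all genes had groups without overlap in these comparisons with sham. The log2 change after the single exposure was -0.68 ± 0.19 (adjusted p = 0.292 by edgeR), and DESeq2 called it at 0.0326, where the other alternatives reached up to 0.85. After 3 weekly exposures the change was -0.25 ± 0.19 (adjusted p = 0.799 by edgeR). The peroxidases and glutaredoxins had 3 of 10 higher and 1 lower after the single exposure, and 2 higher after 3 weekly exposures. Gpx7 and Glrx5 were higher in both, by 0.91 and 0.87 after the single exposure and by 1.10 and 0.76 after 3 weekly exposures on the log2 scale, and none of these was called.

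**Figure D5:**
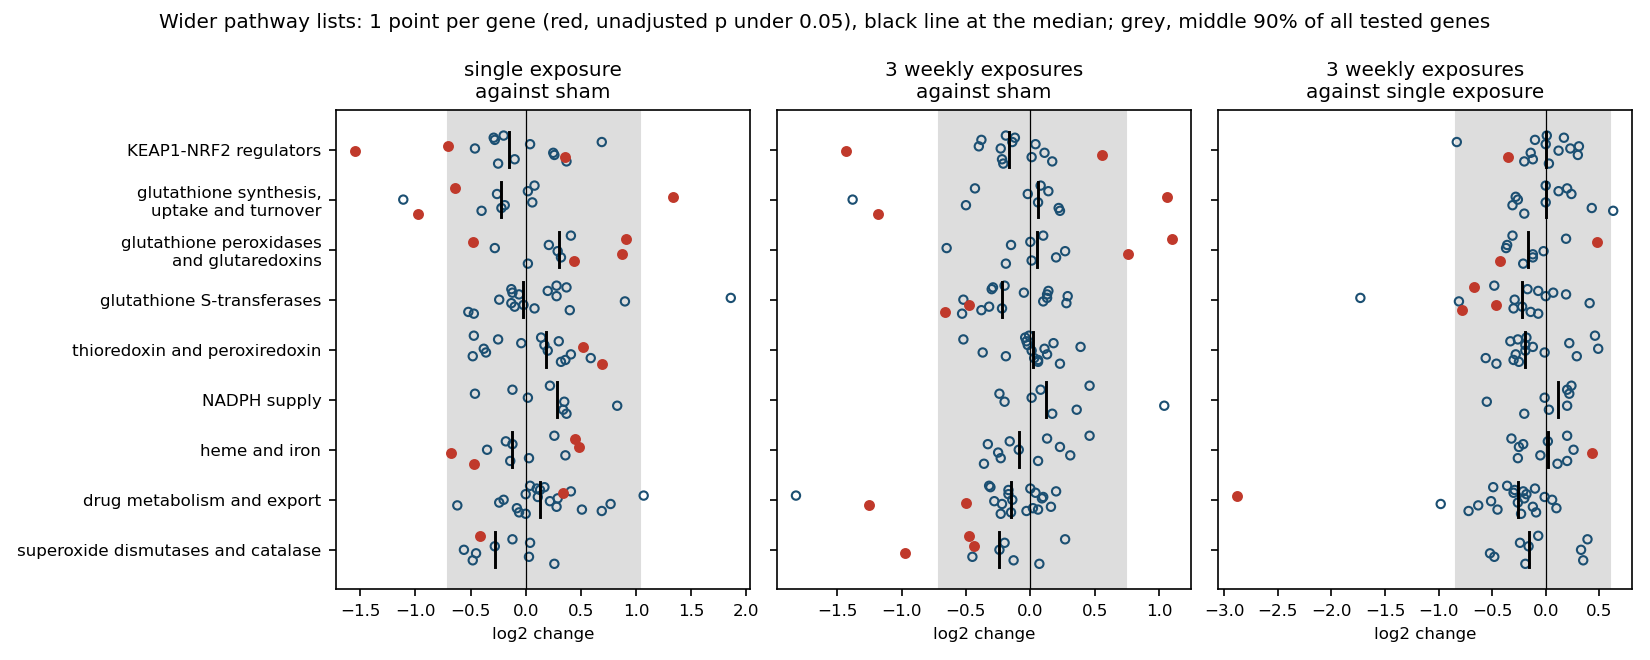
Log2 change (horizontal axes) of each tested gene of the 9 wider lists (rows) in the 3 comparisons, with filled points at an unadjusted p under 0.05, black lines at list medians and grey over the middle 90% of all tested genes. Maff is the lowest filled point of the regulators, at -1.55 and -1.43 against sham, and edgeR called none of the 117 genes.

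At an unadjusted p under 0.05 after 3 weekly exposures, where 7.90% of all genes stood, glutathione S-transferases had 0 higher and 2 lower of 17 (11.8%). Drug metabolism and export had 0 higher and 2 lower of 21 (9.52%), and the list of superoxide dismutases and catalase, which also holds Mt2 and Ucp2, had 0 higher and 3 lower of 9 (33.3%). After the single exposure, where 12.0% of all genes stood at that p, S-transferases had 0 of 17. Drug metabolism and export then had 1 higher and 0 lower (4.76%), and the list of superoxide dismutases and catalase had 0 higher and 1 lower (11.1%). Akr1b8, an aldo-keto reductase, gave 11.3, 8.86 and 9.50 CPM in 3 weekly exposures lungs against 23.7, 28.6 and 18.5 CPM in sham lungs, without overlap, and its log2 change was -1.25 ± 0.32 (adjusted p = 0.406 by edgeR). Mt2, a metal-binding metallothionein, gave 4.89, 6.27 and 5.73 CPM in 3 weekly exposures lungs against 11.0, 8.29 and 13.8 CPM in sham lungs, with a change of -0.97 ± 0.29 (adjusted p = 0.478 by edgeR). The thioredoxin and peroxiredoxin list had 2 of 16 higher at an unadjusted p under 0.05 after the single exposure (12.5%, beside 12.0% of all genes). None of that list reached that p after 3 weekly exposures. Msrb1, a methionine sulfoxide reductase, was among those 2 genes, at 0.69 ± 0.21 after the single exposure. No gene of NADPH supply passed an unadjusted p of 0.05.

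Some of the wider genes followed single libraries. Me1, the malic enzyme that supplies NADPH and is abundant in fat, stood at 338 CPM in library 1 of the single exposure group and 411 CPM in library 3 of the 3 weekly exposures group, against 79.1 to 123 CPM in the other 7. The summed adipocyte markers were highest in those libraries, at 1200 and 1360 CPM, against 82.5 to 187 CPM elsewhere, over 10 of 10 markers in the table, none of them at 0 in all libraries. Cyp2a5, a cytochrome P450 of mouse liver and airways, stood at 810 CPM in library 1 of the single exposure group, which also carried the heart transcripts, at 35.1 and 119 CPM in the others of that group and at 31.1, 28.2 and 71.4 CPM in 3 weekly exposures lungs, against 158, 178 and 125 CPM in sham lungs. All exposure libraries but that one thus lay below the sham range, and the log2 change was 1.07 ± 0.89 after the single exposure and -1.82 ± 0.92 after 3 weekly exposures, neither called by edgeR. In library 1 of the single exposure group ciliated markers summed to 1150 CPM, against 381 to 898 CPM in the others. Club markers summed to 41600 CPM there, against 25900 to 45800 CPM, and liver markers to 45.8 CPM, against 0.984 to 34.4 CPM. The part of these tissues in Me1 and Cyp2a5 was not tested.

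The genes whose levels were most like that of Nfe2l2 over the 9 libraries were not other members of the pathway. By Pearson correlation of log2 CPM among 14073 genes, given as a description over libraries that share groups and depth, those most alike included Alox5ap at 0.861 and Znrf3 at 0.858. The other 9 members correlated with Nfe2l2 between -0.381 and 0.265. For Hmox1 the 3 most alike reached 0.914 to 0.935, among them Lhfpl2 and Ptgir, and the other members lay between -0.622 and 0.341.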

How the data were processed

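RNA was taken from frozen lungs with Trizol, depleted of ribosomal RNA and made into stranded total RNA libraries, per the labels' protocols. The submitters' processing notes name cutadapt 1.9.3, HISAT2 2.0.4 and the build mm10. What estimated expression, and whether by strand, is not given in the sources used here. Per the file headers, the authors deposited FPKM values and counts per gene. The deposited counts were estimated counts, not whole, in multiples of 1 step per library (0.8538 to 1.1915). Division by the step left 92.0 to 93.4% of values within 0.1 of a whole number, and all were rounded.

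Counts went into edgeR 4.0.16 (R 4.3.3) with its filter on low counts, TMM scaling and 1 quasi-likelihood fit over all 9 libraries with group as the term. The threshold was a Benjamini-Hochberg adjusted p of 0.05. CPM values use the TMM library sizes. Low genes rest on few fragments, and intervals on fragments cover counting error only. Alternatives were DESeq2 1.42.0, limma 3.58.1 on log2(FPKM + 1), a pseudocount of 0.1, other scalings and filters, the compared libraries alone, a replicate block and leaving out each library. The scripts were tested on simulated data. All 10 members are named. Of the wider lists up to 4 genes per list and comparison were eligible, those with the smallest p. For the genes most like Nfe2l2 and Hmox1 in pattern the rule took the 3 with the highest correlation, and some of them are not reported here. The members and lists were chosen with earlier results of these data known. Gene coordinates, counted from 1, are those of GENCODE M21 on GRCm38. The deposited intervals matched them at both ends for 4 of the 10 members. Those of Keap1, Nqo1, Hmox1, Gclm, Txnrd1 and Slc7a11 differed, and the deposited values may rest on those other intervals. That of Slc7a11 starts at 50364935, against 49892526 in GENCODE.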

Additional observations from a re-analysis of the deposited data

How the results depend on the processing

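No member was called in any of the 19 alternatives, and the median change of the members stayed between -0.06 and 0.02 after the single exposure, between -0.12 and -0.04 after 3 weekly exposures and between -0.12 and 0.02 between the exposure groups. Of 30 member changes 17 took the other sign in at least 1 alternative. The count of all genes called, 0 by edgeR in each comparison, was 198, 89 and 5 with DESeq2 for the single exposure, the 3 weekly exposures and 3 weekly against single exposures, and 160 for any difference. It was 3 for the single exposure, 1 for 3 weekly against single exposures and 1 for any difference with limma on log2(FPKM + 1). With a pseudocount of 0.1 it was 5, 1, 1 and 2 in the same order of the 4 tests, and without the FPKM filter 5 for the single exposure, 3 for 3 weekly against single exposures and 1 for any difference. Fitting the 3 weekly exposures and sham libraries alone gave 9, and 1 member, Hmox1, at an unadjusted p under 0.05. Leaving out 1 library gave 0 to 1 members at that p in each comparison, namely Gclm without library 3 of the single exposure group and Hmox1 without library 2 or 3 of the single or library 2 of the 3 weekly exposures group. The cause was not tested. Without sham library 1 the genes at an unadjusted p under 0.05 numbered 763, 492 and 605, against 1693, 1112 and 920 with all libraries. The replicate block gave 0 genes and 0 members called in each comparison, with 1642, 1080 and 785 genes at an unadjusted p under 0.05. The labels do not say whether replicate numbers pair the libraries, and these values cannot decide it. Correlations of same-numbered libraries ran from -0.079 to 0.304, and 5 of 9 libraries correlated best with their own number. Nqo1 and Slc7a11 had the fewest fragments of the members, down to 11 and 30, and the Slc7a11 libraries differed by more than counting error.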
